A study of Mus musculus with 3 samples.

Results

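The genes described here encode the integrins, the laminins and the adhesive matrix proteins that join them to the cell surface. They were chosen by name among protein-coding genes of GENCODE M21, as the integrin alpha chains, the integrin beta chains, the laminin alpha, beta and gamma chains, and *Fn1*, *Nid1*, *Nid2*, *Hspg2*, *Agrn*, *Dag1*, *Tnc* and *Vtn*. This gave 45 of the 55401 genes in the count tables, namely 18 integrin alpha, 8 integrin beta, 11 laminin and 8 other matrix genes. Bulk RNA-Seq counts came from maxillary processes of E10.5 *wnt1cre; Rosa26Dlx2/-* mouse embryos, in 3 libraries called OE replicates 1, 2 and 3. In these embryos *wnt1cre* acts on a *Rosa26CAG-LSL-Dlx2-3xFlag* allele, so that *Dlx2* is overexpressed in neural crest cells and their descendants, whereas epithelium, endothelium and blood of the same tissue do not descend from the neural crest. All 3 libraries carry the same alleles and the numbers are only names. The study prepared 3 independent RNA samples, and whether these were separate embryos or litters was not stated. Each value below describes the OE tissue, since wild-type libraries were not used here and genotypes were not compared.

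Integrins are receptors of the cell surface built from an alpha and a beta chain, and each pair binds its own set of matrix proteins. Laminins are trimers of an alpha, a beta and a gamma chain, and they polymerise into the sheet of the basement membrane, which nidogens and perlecan tie to the collagen IV network. In the early face, basement membranes separate the surface epithelium from the mesenchyme and enclose blood vessels, and fibronectin fills the mesenchymal matrix through which neural crest cells have moved.

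Counts on genes were 36544554, 35351031 and 40057435 in replicates 1, 2 and 3, and the members took up 0.295%, 0.277% and 0.186% of them. *Dlx2* stood at 235, 201 and 183 counts per 1000000 (CPM), where the counts on genes of each library were first scaled by its TMM factor. This count does not separate the *Rosa26* allele from the endogenous gene. Mesenchyme markers were present in full, with 11 of 11 tested and a summed level of 2040, 2215 and 2433 CPM, led by *Prrx1* at 543 ± 110 CPM and *Twist1* at 374 ± 78.4 CPM (mean ± SD, n = 3). Replicate 3 stood apart from the other libraries by transcript length and by GC content. Among protein-coding genes its log2 ratio to the mean of replicates 1 and 2 had a median of 0.71 for the 1799 genes with up to 2000 bp of exon and of -0.66 for the 822 genes over 12000 bp. By GC content the median rose from -0.54 for genes at up to 45% to 0.64 for those over 60%. Replicate 1 stood apart by its neuron markers, which summed to 273 CPM there and to 24.3 and 35.9 CPM in replicates 2 and 3. The level of 3 counts, 0.0777, 0.0843 and 0.0796 CPM in the 3 libraries, is the limit below which a gene at 0 cannot be judged, and it covers counting error only.

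Most of the family was expressed in the E10.5 maxillary process. At least 10 counts in every library were found for 40 of the 45 members, including 15 of 18 integrin alpha chains, 8 of 8 beta chains, 9 of 11 laminin chains and 8 of 8 other matrix genes. The same limit was reached by 13426 of 21897 protein-coding genes and by 15607 of all 55401 genes. *Itgad* and *Itgax*, alpha chains of leukocyte integrins, had 0 counts in all 3 libraries. *Lama3*, an alpha chain of epithelial laminin, had 14, 5 and 3 counts. To compare genes with each other, CPM was divided by the length of the merged exons of each gene, which gives CPM per kb. In CPM per kb the members with counts ranged from 0.0181 for *Lama3* to 79.9 for *Itgb5*, both as means of 3 libraries.

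**Figure D1:**
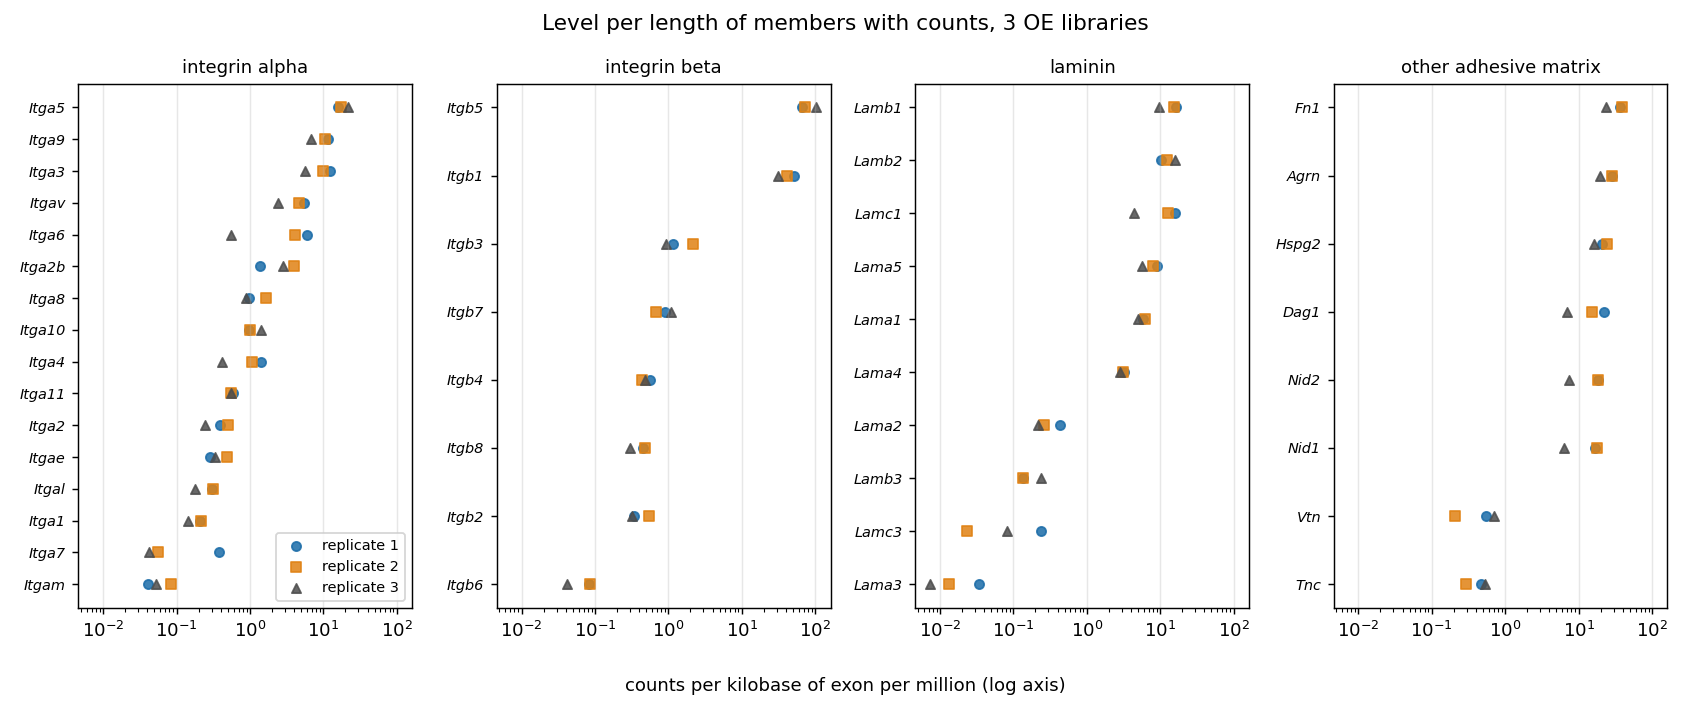
Level of members with counts, in CPM per kb of exon on a log axis, for OE replicates 1 (circles), 2 (squares) and 3 (triangles), with genes sorted by mean level within each class. *Itgb5* and *Itgb1* lie above 30 CPM per kb in every library while the other 6 beta chains lie below 2.5, and the triangle of *Itga6* lies far to the left of its other symbols.

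Among the alpha chains *Itga5* (ENSMUSG00000000555.8, mm10 chr15:103344286-103366763, minus strand), which forms the main fibronectin receptor with beta 1, was the highest. It was at 78.1, 84.7 and 107 CPM in replicates 1, 2 and 3, or 18.2 ± 3.09 CPM per kb (SD, n = 3). Each of its 3 values per kb lay above each value of the next gene, *Itga9*. *Itga9* encodes a receptor for tenascin-C and osteopontin and was at 89.0, 79.8 and 51.6 CPM. *Itga3*, a laminin receptor chain, was at 71.3, 57.0 and 32.3 CPM. Per kb these genes stood at 9.55 ± 2.54 and 9.37 ± 3.46, which do not differ beyond their spread, and their order turned when the longest transcript was used as the length.

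*Itgav*, the alpha chain of several receptors for the Arg-Gly-Asp motif, was at 58.6, 49.8 and 25.7 CPM. *Itga6* (ENSMUSG00000027111.16, chr2:71745616-71858416, plus strand), a laminin receptor chain of epithelia and stem cells, was at 54.1, 37.2 and 5.02 CPM. Replicate 3 was 10.8-fold under the highest library, and this rests on 2088, 1324 and 189 counts, far above the counting limit. Per kb *Itgav* stood at 4.16 ± 1.59 and *Itga6* at 3.56 ± 2.76, and their ranges overlap. *Itga2b*, which with beta 3 forms the fibrinogen receptor of platelets and megakaryocytes, was the sixth by level, with 7.51, 21.6 and 15.4 CPM. Its lowest library was replicate 1, the reverse of *Itga6*.

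The other 10 alpha chains with counts had mean levels between 0.0593 CPM per kb (*Itgam*) and 1.17 CPM per kb (*Itga8*, a nephronectin receptor chain). Collagen receptor chains were all present at low level, with *Itga10* at 1.12, *Itga11* at 0.563, *Itga2* at 0.383 and *Itga1* at 0.191 CPM per kb. Of the exonic bases of *Itga10*, 33.5% are shared with the annotated gene *Gm42957*, and 68.7% of those of *Itgam* with *Gm49368*, so their counts are uncertain. *Itga4*, which pairs with beta 1 or beta 7 to bind VCAM-1 and a spliced segment of fibronectin, was at 20.0, 14.9 and 5.89 CPM. *Itga7*, the laminin receptor chain of muscle, was at 3.11, 0.450 and 0.345 CPM. The 3 libraries thus place *Itga7* high in replicate 1 only, on 120, 16 and 13 counts.

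The beta chains were dominated by a pair of genes. *Itgb5* (ENSMUSG00000022817.15, chr16:33829665-33949338, plus strand), whose product pairs with alpha v to bind vitronectin, was at 232, 260 and 359 CPM. *Itgb1* (ENSMUSG00000025809.15, chr8:128685654-128733200, plus strand), the common partner of the collagen, laminin and fibronectin receptor alpha chains, was at 209, 168 and 126 CPM. *Itgb5* was highest in replicate 3, where *Itgb1* was lowest. Per kb *Itgb5* stood at 79.9 ± 18.8 and *Itgb1* at 41.1 ± 10.2, and no value of *Itgb5* fell within the range of *Itgb1*. Together they made up 97.1%, 96.3% and 97.7% of the summed beta chain level. The share of *Itgb1* was 42.7%, 34.7% and 22.8%, a mean of 33.4% ± 10 (SD, n = 3), and 38.7% without replicate 3.

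The next beta chain was *Itgb3*, at 6.81, 12.95 and 5.55 CPM and 1.43 ± 0.671 CPM per kb, with every value under the lowest value of *Itgb1*. *Itgb7*, a leukocyte chain, was at 2.46, 1.88 and 2.97 CPM. *Itgb4*, the hemidesmosome partner of alpha 6, was at 3.96, 3.03 and 3.40 CPM. *Itgb8* and *Itgb6*, whose alpha v pairs release latent TGF-beta, stood at 0.415 and 0.0706 CPM per kb, and *Itgb2*, the leukocyte chain, at 0.402 CPM per kb. From *Itgb4* to *Itgb2* neighbouring genes overlapped in their values, whereas *Itgb7* lay above *Itgb4* and *Itgb2* above *Itgb6* in all libraries.

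Summed over genes, alpha chains stood at 58.3, 56.2 and 44.1 CPM per kb and beta chains at 120.2, 119 and 135 CPM per kb. The ratio of alpha to beta was 0.428 ± 0.0881 (SD, n = 3), with 0.485, 0.472 and 0.327 in replicates 1, 2 and 3, and 0.479 without replicate 3. With the longest coding sequence as the length it was 0.574. For 24 alpha-beta pairs known to form, the lower chain of each pair was taken as a limit set by RNA, with no statement on protein. Of these pairs 12 contain beta 1, and in 12 of them the alpha chain was the lower chain in every library. The alpha 5 beta 1 pair had the highest such limit, 15.8, 17.2 and 21.7 CPM per kb, all from *Itga5*. It was followed by alpha 9 beta 1 at 9.55, alpha 3 beta 1 at 9.37, alpha v with beta 1 or beta 5 at 4.16, and alpha 6 beta 1 at 3.56 CPM per kb as means. The alpha 6 beta 4 pair was limited by *Itgb4*, at 0.565, 0.433 and 0.484 CPM per kb. In replicate 3 *Itga6* itself was at 0.556 CPM per kb, close to *Itgb4*, while in replicate 1 it was at 5.99.

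**Figure D2:**
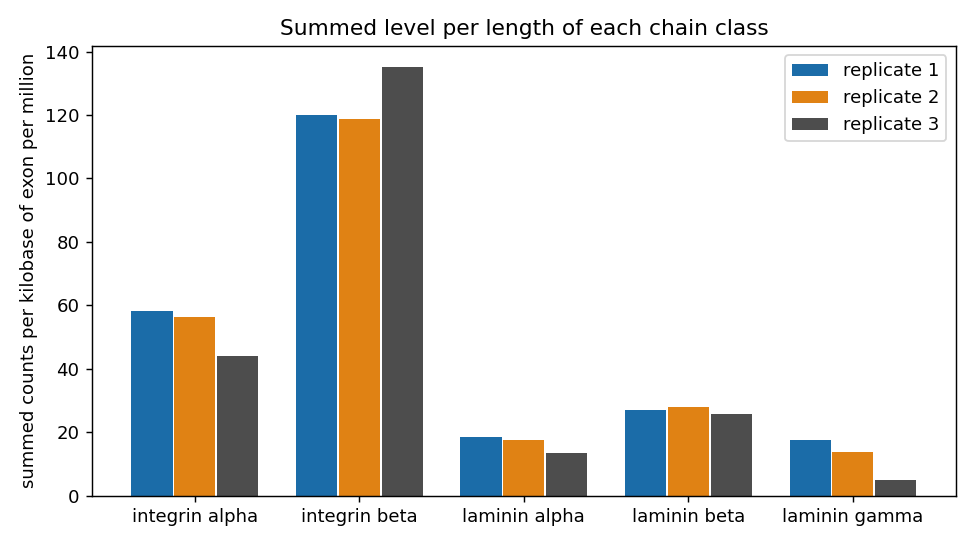
Summed level of the integrin alpha, integrin beta, laminin alpha, laminin beta and laminin gamma chains in CPM per kb of exon, with a bar for each OE replicate. Laminin gamma is at 17.4 in replicate 1 and 5.00 in replicate 3, while laminin beta lies between 25.7 and 28.0 in all 3.

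Laminin chains were led by *Lamb1*, *Lamb2* and *Lamc1*. *Lamb1* (ENSMUSG00000002900.17, chr12:31265234-31329644, plus strand), the common beta chain of embryonic laminins, was at 164, 154 and 95.4 CPM. *Lamb2*, the beta chain known from synapses and the kidney glomerulus, was at 62.4, 75.3 and 96.3 CPM. *Lamc1* (ENSMUSG00000026478.14, chr1:153218922-153332786, minus strand), the gamma chain of nearly every laminin, was at 132, 106 and 36.4 CPM. *Lamb2* was highest in replicate 3, where *Lamb1* and *Lamc1* were lowest. Per kb the 3 genes stood at 13.9 ± 3.73, 12.8 ± 2.81 and 11.1 ± 5.97 (SD, n = 3), and their values overlap. With the longest transcript as the length they stood at 23.8, 13.9 and 12.0 as means. The ratio of *Lamb2* to *Lamb1* per kb was 0.621, 0.798 and 1.65, or 0.391, 0.503 and 1.04 with the longest transcript, so the size of the ratio depends on the length chosen.

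Of the alpha chains *Lama5* was highest, at 102, 91.8 and 63.7 CPM, followed by *Lama1* at 56.9, 59.8 and 48.0 CPM. *Lama5* marks many epithelial basement membranes and *Lama1* the earliest ones of the embryo. *Lama4*, the chain of blood vessels and mesenchyme, was at 38.3, 38.0 and 33.8 CPM. Its log2 SD between libraries was 0.10, against 0.17 for *Lama1*, and with a fitted trend of exon length and GC taken out these were 0.16 and 0.10. Per kb they stood at 7.54 ± 1.75, 5.67 ± 0.632 and 3.04 ± 0.211, and *Lama4* lay under the other alpha chains of this group in all libraries. *Lama5* overlapped with *Lama1* over the libraries but lay above it within each library. With the longest transcript as the length, *Lama4* ranked above *Lama1*.

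Chains known from epithelial laminin were low, with *Lamb3* at 0.907, 0.899 and 1.57 CPM and *Lama3* at 0.0181 CPM per kb as a mean. *Lama2*, the chain of muscle and nerve, was at 7.02, 4.30 and 3.56 CPM. *Lamc3* was at 1.45, 0.140 and 0.504 CPM on 56, 5 and 19 counts. *Lamc1* made up 91.7%, 92.7% and 88.0% of the summed gamma level.

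Summed laminin alpha chains stood at 18.5, 17.7 and 13.6, beta chains at 26.9, 28.0 and 25.7, and gamma chains at 17.4, 13.9 and 5.00 CPM per kb. The alpha to gamma ratio was 1.06, 1.27 and 2.72, with a mean of 1.68 ± 0.899 (SD, n = 3) and 1.17 without replicate 3. The beta to gamma ratio was 1.55, 2.02 and 5.14, with a mean of 2.90 ± 1.95 and 1.79 without replicate 3. Both means thus rest on replicate 3, the library in which *Lamc1* was low. Of 9 known trimers, those of *Lama5* and *Lamc1* with *Lamb1* or *Lamb2* had the highest limit set by the lowest chain, 7.14 ± 2.42 CPM per kb, set by *Lama5* in replicates 1 and 2 and by *Lamc1* in replicate 3. The trimers of *Lama1* followed at 5.49 ± 0.949, with the same change of the limiting chain from *Lama1* to *Lamc1*. Those of *Lama4* were limited by *Lama4* in every library, at 3.04 ± 0.211 CPM per kb.

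*Lamc1* carries the site through which nidogens attach to laminin. The site is shown because *Lamc1* and both nidogen genes were low in the same library, replicate 3. That library was the lowest for 69.0% of the members tested. It was also the lowest for 64.8% of protein-coding genes within the interquartile range of the members' lengths. The site lies in exon 14 of 28 of *Lamc1*, at chr1:153243361-153243381 on the minus strand of GRCm38, and encodes residues 831 to 837 of the longest coding sequence of GENCODE M21. The capitals mark the codons of the nidogen-binding loop, a run of residues that no other member encodes.
*Lamc1*: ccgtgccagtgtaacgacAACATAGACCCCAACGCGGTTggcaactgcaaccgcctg
*Nid1*, nidogen 1, was at 117, 123 and 44.4 CPM, and *Nid2*, nidogen 2, at 94.7, 94.3 and 38.6 CPM. For both genes replicates 1 and 2 lay close together and replicate 3 far below, at log2 ratios of -1.43 and -1.29 to the mean of the other libraries. *Lamc1* had a log2 ratio of -1.70. Per kb the nidogens stood at 13.7 ± 6.30 and 14.7 ± 6.24 (SD, n = 3), near *Lamc1* at 11.1.

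Fibronectin was the most highly expressed member in CPM. *Fn1* (ENSMUSG00000026193.15, chr1:71585520-71653200, minus strand) was at 425, 456 and 274 CPM, or 32.9 ± 8.34 CPM per kb. Its Arg-Gly-Asp motifs and its alpha 4 beta 1 site are shown because alpha 5 beta 1, the alpha v pairs and alpha 4 beta 1, named above, bind motifs of these kinds. The motifs were found by sequence alone, and binding at each place was not tested. *Fn1* encodes Arg-Gly-Asp at 2 places. The first lies in exon 30 of 46 at chr1:71606746-71606754 (residues 1614 to 1616) and the second in exon 40 at chr1:71597443-71597451 (residues 2181 to 2183). Exon 40 also encodes the alpha 4 beta 1 site of the connecting segment, at chr1:71597683-71597697 (residues 2099 to 2103). All lie on the minus strand of GRCm38 and capitals mark the codons of each motif. *Vtn*, the gene of vitronectin, the plasma protein that alpha v beta 5 binds, encodes Arg-Gly-Asp in exon 3 of 8 at chr11:78499706-78499714 on the plus strand (residues 64 to 66).
*Fn1*, first Arg-Gly-Asp: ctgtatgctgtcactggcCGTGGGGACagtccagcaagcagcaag
*Fn1*, second Arg-Gly-Asp: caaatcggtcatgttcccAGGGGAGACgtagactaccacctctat
*Fn1*, alpha 4 beta 1 site: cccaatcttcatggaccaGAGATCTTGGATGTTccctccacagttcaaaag
*Vtn*, Arg-Gly-Asp: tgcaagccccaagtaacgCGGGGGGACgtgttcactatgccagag
Counts per gene do not tell how many *Fn1* transcripts carried exon 40. Arg-Gly-Asp was encoded by the longest coding sequence of 18 of 45 members and of 7.25% of 21515 protein-coding genes, with no matching for length. The residues of the alpha 4 beta 1 site were encoded by *Fn1* and by no other member. *Vtn* was low, at 1.11, 0.421 and 1.43 CPM on 43, 15 and 54 counts, next to the high *Itgb5*. *Tnc*, the gene of tenascin-C, a ligand of alpha 9 beta 1, was also low at 3.60, 2.25 and 4.17 CPM. Per kb *Vtn* at 0.488 and *Tnc* at 0.430 overlapped, and each of their values lay under every value of the other 6 matrix genes.

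The heparan sulfate proteoglycans and their receptor were high. *Hspg2*, the gene of perlecan, was at 299, 348 and 233 CPM. *Agrn*, the gene of agrin, was at 262, 263 and 183 CPM. *Dag1*, the gene of dystroglycan, the laminin receptor outside the integrin family, was at 142, 97.4 and 44.4 CPM. *Agrn* and *Hspg2* were lowest in replicate 3 by less than 2-fold, while *Dag1* was 3.19-fold lower in replicate 3 than in replicate 1. Per kb the order was *Fn1* at 32.9, *Agrn* at 25.4, *Hspg2* at 20.5, *Dag1* at 14.9, *Nid2* at 14.7 and *Nid1* at 13.7. Neighbouring genes in this order overlapped in their values over the libraries. Within each library, however, *Fn1* lay above *Agrn*, *Agrn* above *Hspg2* and *Nid2* above *Nid1*. With the longest transcript as the length the nidogens changed order as means.

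The 3 counts of a gene were next compared with counting noise by a chi-square test with 2 degrees of freedom and Benjamini-Hochberg adjustment over the 17115 genes that averaged 10 counts or more. Of the members, 42 reached this mean, and for 38 of them the libraries differed at an adjusted p under 0.05. This was 90.5% of the members and 81.5% of all genes tested, so differing between libraries was the rule in these data. The 4 that did not pass were *Itga11* (adjusted p = 0.916), *Itgam* (0.243), *Itgb4* (0.111) and *Itgb6* (0.0989), of which *Itgam* rests on 8, 15 and 10 counts and *Itgb6* on 23, 22 and 11. *Itga11* was at 2.98, 2.87 and 2.81 CPM. The test compares libraries, and spread between samples of any origin counts as a difference. The SD of log2 CPM between libraries had a median of 0.44 over the members and 0.39 over all genes tested, and without replicate 3 that of the members was 0.20.

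Most members were lower in replicate 3, relative to all counts. Its log2 ratio to the mean of replicates 1 and 2 was below 0 for 32 of the 42 members, with a median of -0.58, where 51.3% of all genes tested were below 0 with a median of -0.03. By class it was lower for 13 of 16 integrin alpha, 6 of 8 integrin beta, 7 of 10 laminin and 6 of 8 other matrix genes. A ratio of 2-fold or more below was found for 9 members, 21.4%, against 10% of all genes tested, which is 1720 of 17115. Among them were *Itga6* (-3.15), *Lamc1* (-1.70), *Itga7* (-1.66), *Itga4* (-1.54), *Nid1* (-1.43), *Dag1* (-1.40), *Nid2* (-1.29) and *Itgav* (-1.07), with log2 ratios in parentheses. No member was higher in replicate 3 by 2-fold or more, against 12.6% of all genes and 2.66% of protein-coding genes of like length. *Vtn* came nearest with a log2 ratio of 1.00, just under the limit, followed by *Lamb3* at 0.76, *Itgb5* at 0.55, *Tnc* at 0.54 and *Lamb2* at 0.49. In bulk tissue, fewer cells of a type and less RNA per cell cannot be told apart.

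**Figure D3:**
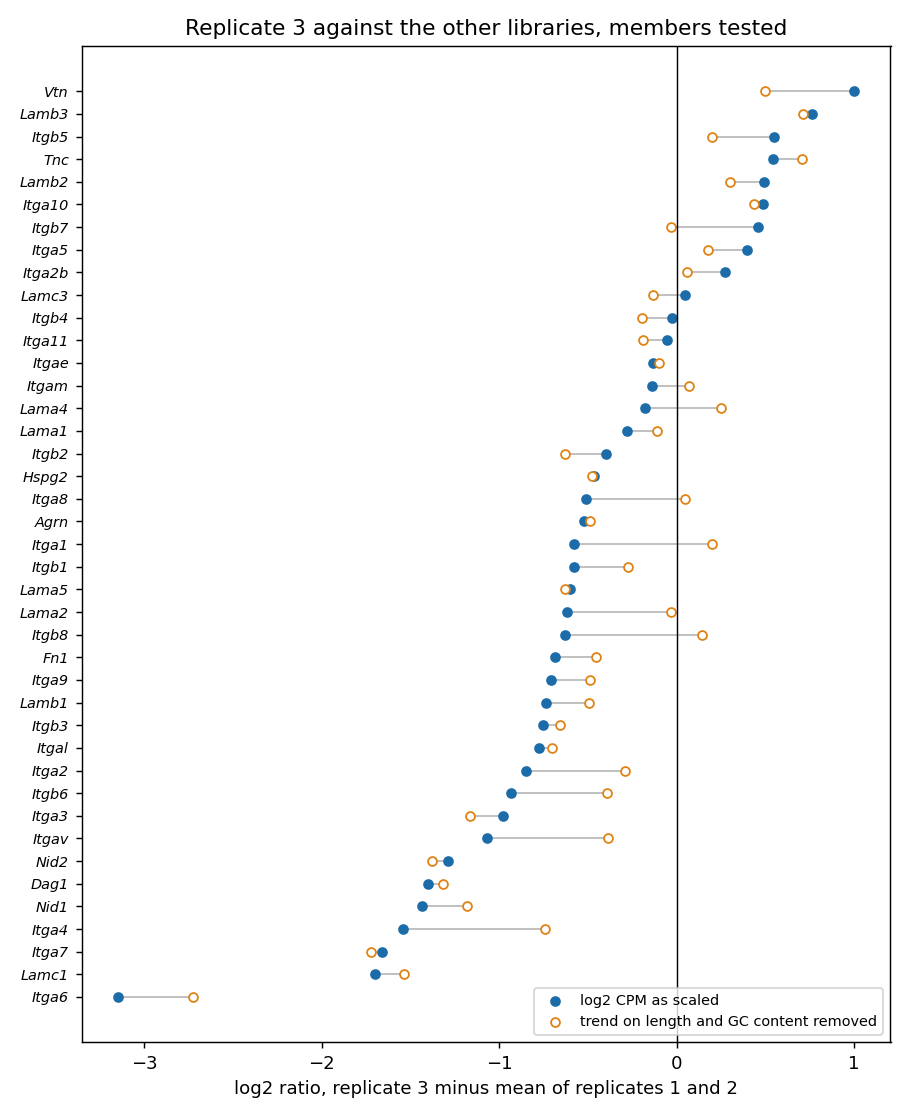
Log2 ratio of OE replicate 3 to the mean of replicates 1 and 2 for members tested, from log2 CPM (filled) and with a smooth length and GC trend taken out (open). Most filled points lie left of 0, and *Itga6* stands farthest left on both scales, at -3.15 and -2.73.

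The members are long genes, and length moved with the result. Their median exonic length was 7063 bp, against 3871 bp for all genes tested. Protein-coding genes within the interquartile range of the members' lengths, 5253 to 9582 bp, were lower in replicate 3 in 70.1% of cases with a median of -0.36, close to the 76.2% of the members. Of these genes 13.3% were lower by 2-fold or more and 2.66% higher, against 21.4% and 0% of the members. They were not matched for GC content, which had a median of 48.1% among them and 53.1% among the members. With the length and GC trend taken out, 29 of 42 members were lower in replicate 3 with a median of -0.28, where genes of like length had -0.03. By 2-fold or more 7 members were lower, which is 16.7%. This compares with 7.33% of all genes with a fitted trend and 5.16% of protein-coding genes of like length. *Itga6* remained at -2.73, *Itga7* at -1.72, *Lamc1* at -1.54, *Nid2* at -1.38, *Dag1* at -1.32 and *Nid1* at -1.18, and *Itga3* moved from -0.98 to -1.17. *Itgav* moved to -0.39 and *Itga4* to -0.74. *Lama4*, *Itga1* and *Itgb8*, with -0.18, -0.58 and -0.63 as scaled, came to 0.25, 0.20 and 0.15. Whether RNA quality or library preparation played a part was not tested.

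**Figure D4:**
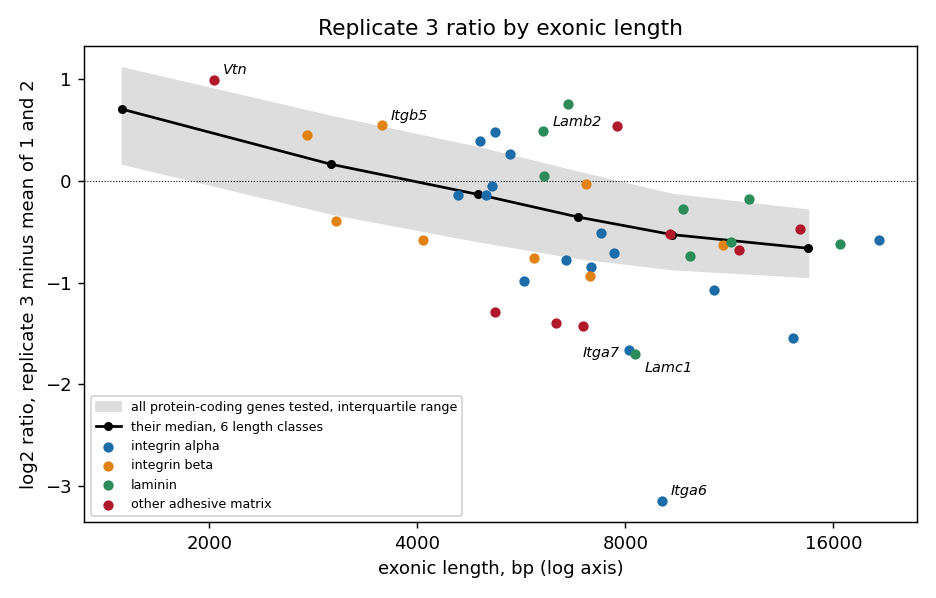
Log2 ratio of OE replicate 3 to the mean of replicates 1 and 2 against exonic length (log axis) for the members tested, by class, with the median (line) and interquartile range (grey) of all protein-coding genes tested in 6 length classes. The line falls from 0.71 to -0.66 with length, and *Itga6*, *Lamc1* and *Itga7* lie below the grey band.

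Replicate 1 was higher than the mean of the others by 2-fold or more for 6 members, *Itga7*, *Lamc3*, *Itga6*, *Dag1*, *Itga4* and *Lamc1*, where 5.57% of all genes were. It was lower by 2-fold or more for *Itga2b*, where 6.69% of all genes were. The log2 ratios of replicate 1 were 2.82 for *Itga7*, 2.19 for *Lamc3* and -1.27 for *Itga2b*. Replicate 1 also had a trend on length, with a median log2 ratio from -0.50 for protein-coding genes of up to 2000 bp to 0.49 for those over 12000 bp. With the length and GC trend taken out 4 members were higher there by 2-fold or more, 9.52% against 5.57% of all genes and 4.24% of protein-coding genes of like length. *Itga4* moved from 1.09 to 0.49 and *Lamc1* from 1.08 to 0.95. Over the members tested, the median log2 ratio of replicate 1 was 0.26, the same as the 0.26 of protein-coding genes of like length, and 0.16 with the trend taken out, where all genes had 0.01 as scaled. That of replicate 2 was 0.30, against 0.11 and 0.03 for genes of like length and all genes.

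Some of these members moved beside markers of other cell types. *Itga7* and *Lamc3* were highest in replicate 1, as were the neuron list (9 of 9 genes higher there by 2-fold or more, led by *Tubb3* and *Isl1*) and the glia list (5 of 6, led by *Sox10* and *Erbb3*), which summed to 98.2, 25.2 and 26.4 CPM. Of 8 muscle markers tested 3 were also higher in replicate 1 by 2-fold or more, where 5.57% of all genes were. These were *Actc1* at 5.42, 0.506 and 1.62 CPM, *Msc*, which shares 21.2% of its exonic bases with *Gm9947*, at 3.89, 1.24 and 0.690 CPM and *Myf5* at 3.14, 0.450 and 2.12 CPM. *Myod1* and *Myog*, regulators of muscle differentiation, were lowest in replicate 1, at 0.777, 1.35 and 1.43 CPM and at 0.311, 0.562 and 1.35 CPM. *Itga2b* was lowest in replicate 1 and highest in replicate 2, as was the megakaryocyte and platelet list, at 5.49, 18.6 and 16.2 CPM, led by *Pf4* and *Treml1* and with *Gp1bb* at 0 counts. *Gp1bb* shares 92.9% of its exonic bases with other genes. *Itgb3*, the partner of *Itga2b*, was also highest in replicate 2 but lowest in replicate 3. The part of these cells in the results was not tested.

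*Itga6* was highest in replicate 1 and lowest in replicate 3, as was the epithelium list, which summed to 502, 330 and 309 CPM. Of the 11 genes of this list 4 were lower in replicate 3 by 2-fold or more, 36.4% against 10% of all genes. By the same limit 2 were higher, where 12.6% of all genes were. Its leading genes were *Krt18* at 86.7, 65.5 and 108 CPM and *Krt8* at 83.2, 49.3 and 59.2 CPM, and among the 4 were *Trp63* at 55.4, 29.6 and 11.4 CPM and *Cdh1* at 48.1, 32.5 and 13.4 CPM, named after their values were seen. *Itga6* had a lower log2 ratio in replicate 3 than any gene of this list. *Itgb4* and *Lamb3*, also chains of epithelial receptors and laminin, were not lowest in replicate 3. Endothelium markers, led by *Cdh5* and *Kdr*, summed to 364, 420.4 and 403 CPM. Macrophage and leukocyte markers, led by *Coro1a* and *Csf1r*, summed to 58.8, 77.2 and 109 CPM, while *Itgal*, a leukocyte chain, was at 2.00, 2.08 and 1.17 CPM. Eye and forebrain markers, led by *Lhx2* and *Six6*, summed to 30.0, 165 and 156 CPM, and pigment cell markers, led by *Trpm1* and *Pmel*, to 6.81, 38.4 and 163 CPM, with *Mlana* near 0. What share of any member these cells gave was not tested.

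**Figure D5:**
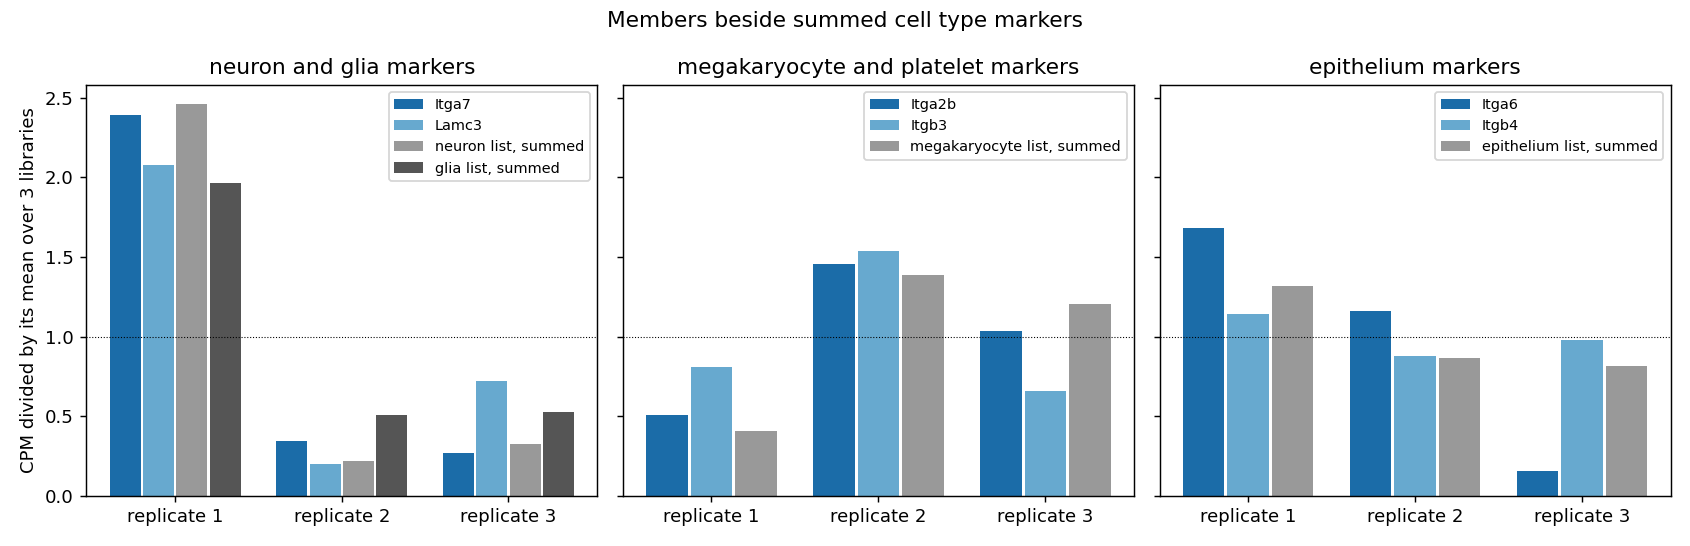
CPM of members and summed CPM of marker lists in each OE replicate, divided by the mean over 3 libraries, with the dotted line at the mean. *Itga7* and *Lamc3* share their high bar in replicate 1 with the neuron and glia lists, *Itga2b* its low bar in replicate 1 with the megakaryocyte list, and the bar of *Itga6* in replicate 3 is at 0.156 while that of the epithelium list is at 0.813.

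Genes that act beside the members were then read from lists. The adhesion machinery inside the cell, which links integrins to actin, had 27 of 28 genes tested, and 24 differed between libraries beyond counting noise, 88.9% against 81.5% of all genes. Of these 27 genes 19 were lower in replicate 3, 70.4% against 51.3% of all genes. By 2-fold or more 3 were lower, 11.1% against 10% of all genes, which is near the background. There was 1 higher by 2-fold or more, and the median was -0.14, or -0.09 without the trend on length and GC content. *Actn4*, an actin crosslinker, was highest at 334, 367 and 358 CPM, followed by *Tln1*, the talin that activates integrins, at 235, 266 and 236 CPM. *Git1*, a scaffold of adhesion sites, was at 198, 205 and 246 CPM. *Vcl*, vinculin, was at 42.9, 32.4 and 3.66 CPM and *Fermt1*, the kindlin of epithelia, at 28.9, 14.8 and 7.70 CPM. *Vcl* thus had a log2 ratio of -3.33 in replicate 3, near that of *Itga6*, and shares 25.5% of its exonic bases with *Ap3m1*. *Ilk* had 0, 0 and 3 counts, and as 89.7% of its exonic bases are shared with *Rrp8* and *Taf10* its level is uncertain.

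Of the other basement membrane and integrin ligand genes, 27 of 31 were tested and all 27 differed beyond counting noise, where 81.5% of all genes did. Replicate 3 was lower for 19 of them, 70.4% against 51.3% of all genes. It was lower by 2-fold or more for 7 (25.9%, against 10% of all genes) and higher by 2-fold or more for 1. The median was -0.65 and became -0.52 without the trend on length and GC content. *Col18a1*, collagen XVIII, was at 363, 403 and 357 CPM. *Col4a1*, the main collagen IV chain, was at 367, 365 and 207 CPM, and *Emilin1*, a ligand of alpha 9 beta 1 and alpha 4 beta 1, at 220, 263 and 307 CPM. The widest ratios were those of *Frem2*, a protein of the epithelial basement membrane, at 124, 81.3 and 18.1 CPM, and *Col4a5* at 17.3, 12.4 and 4.33 CPM. They were lowest in replicate 3 like the nidogens and *Lamc1*, whereas *Col18a1* stayed nearly level. Of 20 dystroglycan partners, 17 were tested and 15 differed beyond counting noise, 88.2% against 81.5% of all genes. Replicate 3 was lower for 10 of the 17, 58.8% against 51.3% of all genes. It was lower by 2-fold or more for 3 (17.6%, against 10% of all genes) and higher by 2-fold or more for 1. Their median was -0.21, and 0.16 without the trend. *Pomgnt1*, a glycosyltransferase for dystroglycan, was at 67.2, 73.0 and 80.2 CPM, *Dtnb*, a dystrobrevin, at 46.6, 50.7 and 88.5 CPM. *Utrn*, utrophin, which anchors dystroglycan to actin, was at 86.2, 61.5 and 24.9 CPM, close in shape to *Dag1*, and *Sntb1*, a syntrophin, at 6.81, 5.56 and 2.36 CPM.

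Promoters were read from RefSeq (GRCm38.p6) as the 300 bases from 250 before to 50 after the start, and 29 of 45 members had an entry. The motif counted was CG, which is the same on both strands and does not overlap with itself. The 15 members at 10 CPM or more had between 4 and 47 CG per promoter with a median of 20, the 14 under 10 CPM between 1 and 23 with 9 and 12 as the middle pair, and 27025 genes of the table a median of 8. *Lamb2*, with 4 CG at 78.0 CPM, and *Itga8*, with 23 CG at 8.59 CPM, stood against that order. As an example of each kind, *Itgb1* and *Itgax*, a member at 0 counts, are shown with each CG in capitals. The *Itgb1* promoter, at chr8:128685404-128685703 on the plus strand, has 27 CG, a number reached by 15.5% of all promoters. The *Itgax* promoter, at chr7:128129300-128129599 on the plus strand, has 5 CG, reached by 62.0%. These counts describe the windows and were not tested against the levels.
*Itgb1*: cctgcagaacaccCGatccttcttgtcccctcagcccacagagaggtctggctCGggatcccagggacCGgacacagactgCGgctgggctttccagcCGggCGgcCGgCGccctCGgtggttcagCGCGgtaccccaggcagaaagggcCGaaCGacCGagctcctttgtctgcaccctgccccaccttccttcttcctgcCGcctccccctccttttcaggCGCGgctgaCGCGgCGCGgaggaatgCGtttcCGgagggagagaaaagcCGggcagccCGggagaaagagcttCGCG
*Itgax*: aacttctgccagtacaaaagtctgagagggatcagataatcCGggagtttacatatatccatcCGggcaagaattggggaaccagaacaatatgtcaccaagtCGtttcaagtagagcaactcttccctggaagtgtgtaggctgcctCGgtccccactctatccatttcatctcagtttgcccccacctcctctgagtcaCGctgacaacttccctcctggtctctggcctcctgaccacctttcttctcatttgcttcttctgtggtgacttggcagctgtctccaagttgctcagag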

How the data were processed

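Poly-A RNA of maxillary prominences was sequenced by the authors as 150 bp paired-end reads from a kit that does not mark strand. Per the submitters' processing notes the tools were FastQC, STAR 2.7.3a and HTSeq 0.12.4 with mm10, and the authors deposited raw counts per gene, as whole numbers without normalization. The strand setting and the annotation release are not given in the sources used here. Rows that name no gene were left out of library sizes, and reads on no gene made up 14.2%, 15.7% and 16.4%, those on more than 1 gene 6.11%, 6.10% and 6.96%.

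Identifiers were matched to GENCODE M21 without regard to version (55141 of 55401). The file identifiers of *Lamb1*, *Lama2*, *Itga6* and *Hspg2* carry a newer version than GENCODE M21, so their exons may differ. CPM used edgeR 4.0.16 with TMM factors of 1.06, 1.01 and 0.940, and log2 values a prior count of 2. The common biological coefficient of variation from an edgeR intercept-only model was 0.371. Counts of each gene with a mean count of at least 10 were tested against scaled library sizes with a chi-square test and Benjamini-Hochberg adjustment at 0.05. For the alternative without it, mgcv 1.9.3 estimated a smooth trend in exonic length and GC over 17101 genes. DESeq2 1.42.0 gave other size factors. R 4.3.3, Python 3.11.15, Biopython 1.88 and matplotlib 3.10.9 were used, and the steps were tested on simulated data.

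The members, the gene lists and the tests were chosen with earlier results of these data known. Named with values are the 6 integrin alpha, 5 integrin beta and 6 laminin genes highest per kb, the 8 other matrix genes, the 6 members with the widest ratio at a mean count of at least 100, the 3 highest genes of each pathway list with the 2 of widest ratio, and the 2 highest genes of each marker list. Other members are given by range, count or where a statement needed them. Single values of some genes are not reported here.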

Additional observations from a re-analysis of the deposited data

How the results depend on the processing

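Of 63 alternatives to the 10 reported summaries, 61 stayed within the limit set, which was the spread between libraries, or 1.5 times for counts. For the median log2 ratios this limit was 0.44, the median log2 SD of the members. It was wider than the medians of replicates 1 and 2, 0.26 and 0.30, so it was no test of their direction. The alternatives kept the sign of each median, and that of replicate 3 became -0.28 with the length and GC trend taken out. The median log2 SD of the members, 0.44, ran from 0.20 to 0.48 when each replicate was left out, with the lowest value without replicate 3. The ratio of integrin alpha to beta, 0.428, became 0.574 with the longest coding sequence as the length. For single members, 857 of 924 alternatives stayed within these limits, 67 moved and 0 turned the sign of a called value. Scaling by total counts moved the median of all genes in replicate 3 from -0.03 to -0.16 and that of the members to -0.71, with 11 members lower by 2-fold or more. With DESeq2 size factors these were -0.01, -0.56 and 9, and 1 member, *Vtn*, was higher by 2-fold or more. Members beyond counting noise numbered 27 to 36 when a replicate was left out. The cause of these moves was not tested. No paired analysis was possible because a single group was analysed. With 3 libraries of a single genotype, the SD of each level is itself poorly known.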

Other observations

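Beside the members that were low in replicate 3, several matrix and adhesion genes were highest there, named after their values were seen. *Fbln1*, the gene of fibulin 1, a partner of fibronectin and nidogen, was at 191, 251 and 326 CPM. *Smoc1*, a matricellular protein of basement membranes, was at 33.1, 37.5 and 81.7 CPM, and *Zyx*, zyxin of adhesion sites, at 94.5, 124 and 181 CPM. With the trend on length and GC content removed their log2 ratios in replicate 3 were 0.41, 0.99 and 0.58. *Npnt*, nephronectin, the ligand of alpha 8 beta 1, was at 59.1, 42.2 and 24.3 CPM, while its receptor chain *Itga8* was at 7.15, 12.1 and 6.50 CPM.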
